A study of Mus musculus with 6 samples.

Results

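The Nr4a nuclear receptors, Nr4a1, Nr4a2 and Nr4a3, were examined in RNA-Seq libraries of long-term hematopoietic stem cells (LT-HSCs) from WT mice and from mice that had lost an allele of Foxm1 (Foxm1 HET). They were 3 of the 27179 genes in the deposited count table, and all 3 were also among the 12179 genes of the deposited normalized table. Members were taken by gene symbol. The family was chosen from the measured values, because Nr4a2 was already known from these libraries to differ between the genotypes. The genotype contrast of these genes is therefore given as a description, without a test. By RT-PCR, whose values are not used here, the study also reported Nr4a2 as significantly lower in Foxm1 HET HSCs.

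The 6 libraries came from 3 WT and 3 Foxm1 HET mice on the C57BL/6 strain at 8 weeks of age, with LT-HSCs sorted from bone marrow as CD150+CD48-LSK cells. The sample titles of the Foxm1 HET libraries name the floxed allele over a wild-type one, and their genotype labels call them heterozygous. Neither the labels nor the RNA-Seq methods name the Cre driver. Elsewhere the study used Tie2-Cre, which is active in endothelial and blood cells, and Mx1-Cre, which is induced by interferon. For other experiments its methods write Foxm1 HET for Tie2-Cre Foxm1fl/+ mice. There WT stands for Foxm1fl/+ mice, which carry the floxed allele without Cre. For the RNA-Seq the controls are given only as WT or control mice, so whether they carried a floxed allele is not stated. The labels describe ribosomal RNA removal and a stranded total RNA library, whereas the methods name a Clontech kit.

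Nr4a receptors are orphan members of the nuclear receptor superfamily. They have a DNA-binding domain like that of steroid receptors but a ligand pocket filled by side chains, so that their activity follows mainly from how much of each protein is made. Their genes are immediate-early genes, transcribed within minutes of a signal through cAMP, calcium or MAP kinase, and the proteins bind the NBRE sequence as monomers and related elements as dimers. Nr4a1 (Nur77) is known from T cell selection, from patrolling monocytes and, together with Nr4a3 (Nor1), from the restraint of HSC proliferation and of myeloid leukemia. Nr4a2 (Nurr1) is best known for dopaminergic neurons and has also been tied to HSC quiescence.

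The sequence before the start of each gene is shown because the half-sites of the cAMP response element, through which CREB acts on immediate-early genes, are shared by the 3 paralogs. The capitals mark each TGACG or its reverse complement CGTCA. Each sequence is the gene's own strand, 5′ to 3′, from the RefSeq promoter table of GRCm38.p6, and lies directly before the RefSeq start, at chr15:101266596-101266845 (plus strand) for Nr4a1 and chr2:57124004-57124253 (minus strand) for Nr4a2. For Nr4a3 the bases at chr4:48045055-48045152 (plus strand) are shown, and the 152 bases from there to the RefSeq start are left out because GENCODE M21 places them in an exon.
Nr4a1: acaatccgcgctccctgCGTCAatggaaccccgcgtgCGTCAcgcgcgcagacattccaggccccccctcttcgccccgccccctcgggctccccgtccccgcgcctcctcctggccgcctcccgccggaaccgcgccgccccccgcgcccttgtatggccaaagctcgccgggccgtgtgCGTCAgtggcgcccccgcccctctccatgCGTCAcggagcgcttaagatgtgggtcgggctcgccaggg
Nr4a2: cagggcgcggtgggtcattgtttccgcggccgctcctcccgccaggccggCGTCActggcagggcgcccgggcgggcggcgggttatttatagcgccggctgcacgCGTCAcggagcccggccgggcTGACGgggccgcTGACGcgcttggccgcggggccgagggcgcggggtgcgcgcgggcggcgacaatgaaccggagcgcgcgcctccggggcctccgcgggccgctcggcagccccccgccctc
Nr4a3: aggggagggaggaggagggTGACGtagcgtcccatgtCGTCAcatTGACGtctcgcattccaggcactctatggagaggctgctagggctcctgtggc

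In the 250 bases before its RefSeq start, each of the 3 genes held 4 half-sites, at 233, 213, 69 and 40 bases before the start of Nr4a1, at 200, 144, 123 and 111 bases before that of Nr4a2, and at 231, 213, 205 and 147 bases before that of Nr4a3. Among 32851 promoter windows of the same length, 17.8% held at least 1 half-site and 45 (0.137%) held 4 or more. None of the 3 windows held the full element TGACGTCA, which contains both half-sites overlapping and is present in 1.55% of windows, or the NBRE AAAGGTCA, present in 1.34%. The forkhead core TAAACA, the shared core of sites for Foxm1 and its relatives, was in none of the 3 and in 12.0% of all windows. The serum response CArG box was in none of the 3 and in 1.47% of all windows, and TATAAA was found 1 time, before Nr4a2, against 12.4% of all windows. Both strands were searched. The GC content of the windows was 74.4% for Nr4a1, 80.0% for Nr4a2 and 63.6% for Nr4a3. These matches describe letters, not binding. They cover 250 bases only, and sites farther from the start were not searched. By CUT&RUN, an assay of binding to DNA, the study found Foxm1 enriched at the Nr4a2 promoter in c-Kit+ bone marrow cells without lineage markers. It also cites its own earlier report of direct binding there. Where that site lies was not located here.

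The exons that the authors counted differed between the paralogs in how much of the gene they covered. Nr4a1 (gene identifier 15370) was counted over 7 exons and 2477 bases at chr15:101266846-101274795, Nr4a2 (18227) over 9 exons and 3347 bases at chr2:57107226-57124003, and Nr4a3 (18124) over 6 exons and 1884 bases at chr4:48051248-48083352, all on GRCm38. Against GENCODE M21, 29.4% of the exon bases of Nr4a1 and 17.5% of those of Nr4a2 were not counted, and all of their coding bases were. For Nr4a3, 68.5% of the exon bases were not counted, among them 3095 bases of the 3′ UTR, although 95.5% of the coding bases were. Reads from the 3′ end of Nr4a3 were thus not included in its counts, and what they would add was not tested. No other gene in GENCODE overlaps any of the 3. Of all stretches of 50 bases, the read length, in their GENCODE transcripts, none of Nr4a1 or Nr4a2 and 9 of 5986 of Nr4a3 also occurred in another gene.

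**Figure D1:**
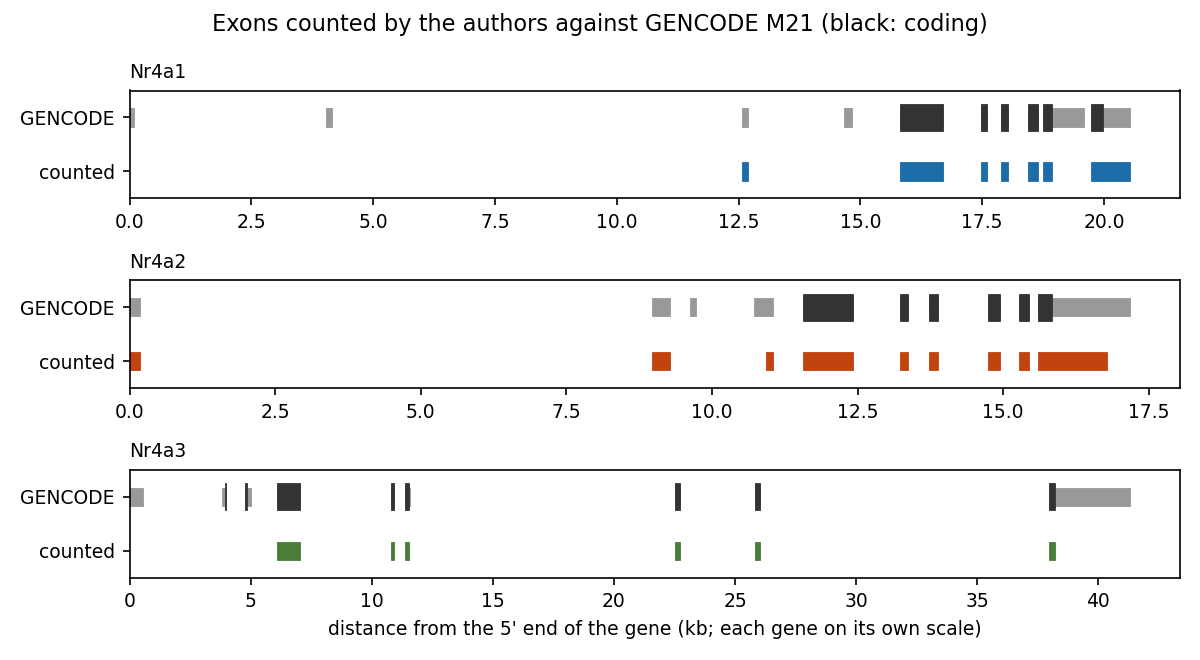
Exons of the 3 Nr4a genes along each gene, in kb from its 5′ end, with the exons of GENCODE M21 in grey, their coding parts in black and the exons counted by the authors in color. The counted exons of Nr4a3 stop at the end of its coding sequence and leave out 68.5% of its exon bases.

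The libraries held 14573002 to 25798509 counted reads and varied strongly within each genotype. Foxm1, the targeted gene, was counted 1182, 2615 and 2942 times in WT against 659, 5 and 742 in Foxm1 HET, lower in each Foxm1 HET library than in each WT library (edgeR log2 fold change -3.30 with a standard error (SE) of 2.33, adjusted p = 0.961 by edgeR's quasi-likelihood test). A count of 10 or more was reached by 7857, 6838 and 5963 genes in WT against 9894, 4467 and 9426 in Foxm1 HET, so that Foxm1 HET replicate 2 stood apart as the library with the fewest reads and genes. Of the 8195 genes tested, 3080 (37.6%) had at least 1000 reads in a library and at most 3 in another. The LT-HSC markers fixed for the check had 10 to 16 of 16 genes with at least 10 reads in a library. Slamf1, which encodes the sorting antigen CD150, had 2, 1572 and 0 reads in WT against 8, 0 and 543 in Foxm1 HET, and Cd48, whose product the sort selected against, had 221, 6608 and 1 in WT against 1285, 5 and 22 in Foxm1 HET. Levels were summed in TPM (counts per kb of gene length, scaled to a common total per library). The 16 LT-HSC markers summed to 1552, 4581 and 1848 in WT against 2756, 2974 and 3659 in Foxm1 HET. The 10 mature myeloid markers summed to 23977, 18625 and 34734 in WT against 22212, 10078 and 3390 in Foxm1 HET. The mature myeloid sum was above the LT-HSC sum in every library but Foxm1 HET replicate 3. B and T cell markers summed to at most 171 TPM, with Cd79a, Ms4a1, Ebf1, Cd3d and Cd3g at 0 in every library, and endothelial and stromal markers to at most 98.9 TPM. The summed levels overlapped between the genotypes for each of the marker lists checked (LT-HSC, progenitor, mature myeloid, erythroid, megakaryocyte, lymphoid, and endothelial and stromal).

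Nr4a2 was abundant in WT LT-HSCs and low in Foxm1 HET LT-HSCs. In WT replicates 1, 2 and 3 it was counted 19667, 19273 and 7117 times, and in Foxm1 HET replicates 1, 2 and 3 it was counted 444, 90 and 948 times, the order kept for all values given by library. In TPM, which is comparable between genes, the levels were 637, 581 and 198 in WT against 10.9, 4.05 and 26.2 in Foxm1 HET. The lowest WT library lay above the highest Foxm1 HET library on each scale. Nr4a2 ranked above 93.4% to 99.2% of the genes with reads in the WT libraries and above 49.3% to 61.5% in the Foxm1 HET libraries, so it remained detected in every library.

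In log2 CPM (counts scaled to library size, after TMM), Nr4a2 was 9.44 ± 0.56 (SD, n = 3) in WT against 3.96 ± 0.49 (SD, n = 3) in Foxm1 HET. Its log2 fold change came to -5.50 with a standard error of 1.85, against a median of -0.26 over all genes tested. It lay between -5.81 and -5.24 with any single library left out, Foxm1 HET replicate 2 included, and between -5.51 and -5.13 under the other settings that were tried. All Foxm1 HET libraries lay below all WT libraries for 4.55% of the genes tested and above for 4.12%, and Nr4a2 was 1 of the former. Nr4a2 is counted here because of this contrast, so nothing is read from that share. In bulk RNA, fewer cells with the transcript and less transcript per cell cannot be told apart. The summed mature myeloid markers were lowest in Foxm1 HET replicates 2 and 3, and their part in the level of Nr4a2 was not tested.

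Nr4a1 was abundant in both genotypes. Its read counts were 4426, 9205 and 49809 in WT against 3729, 15288 and 8062 in Foxm1 HET, and its levels were 194, 375 and 1874 TPM in WT against 124, 931 and 301 TPM in Foxm1 HET. The genotypes overlapped, with WT replicate 3 highest and Foxm1 HET replicate 1 lowest. Nr4a1 was 9.31 ± 2.05 log2 CPM (SD, n = 3) in WT against 8.47 ± 2.42 (SD, n = 3) in Foxm1 HET, a log2 fold change of -0.49 with a standard error of 1.33. No direction can be given for it. The log2 fold change was 1.52 without WT replicate 3 and -3.03 without Foxm1 HET replicate 2, and it was 0.39 with RLE scaling and with DESeq2.

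Nr4a3 was low in both genotypes and close to the limit of detection in Foxm1 HET replicates 2 and 3. Its read counts were 14, 119 and 16 in WT against 68, 0 and 1 in Foxm1 HET. These were 0.806, 6.38 and 0.792 TPM in WT against 2.97, 0 and 0.0491 TPM in Foxm1 HET, where the 0 in Foxm1 HET replicate 2 allows up to 0.240 TPM (3 reads, counting error alone). Foxm1 HET replicate 1 lay above WT replicates 1 and 3, so the genotypes overlapped. Nr4a3 was 0.68 ± 1.53 log2 CPM (SD, n = 3) in WT against -1.99 ± 2.51 (SD, n = 3) in Foxm1 HET, and its log2 fold change was -1.90 with a standard error of 2.85. That value was -6.65 without Foxm1 HET replicate 1 and -0.44 without WT replicate 2, so that single libraries set its size.

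**Figure D2:**
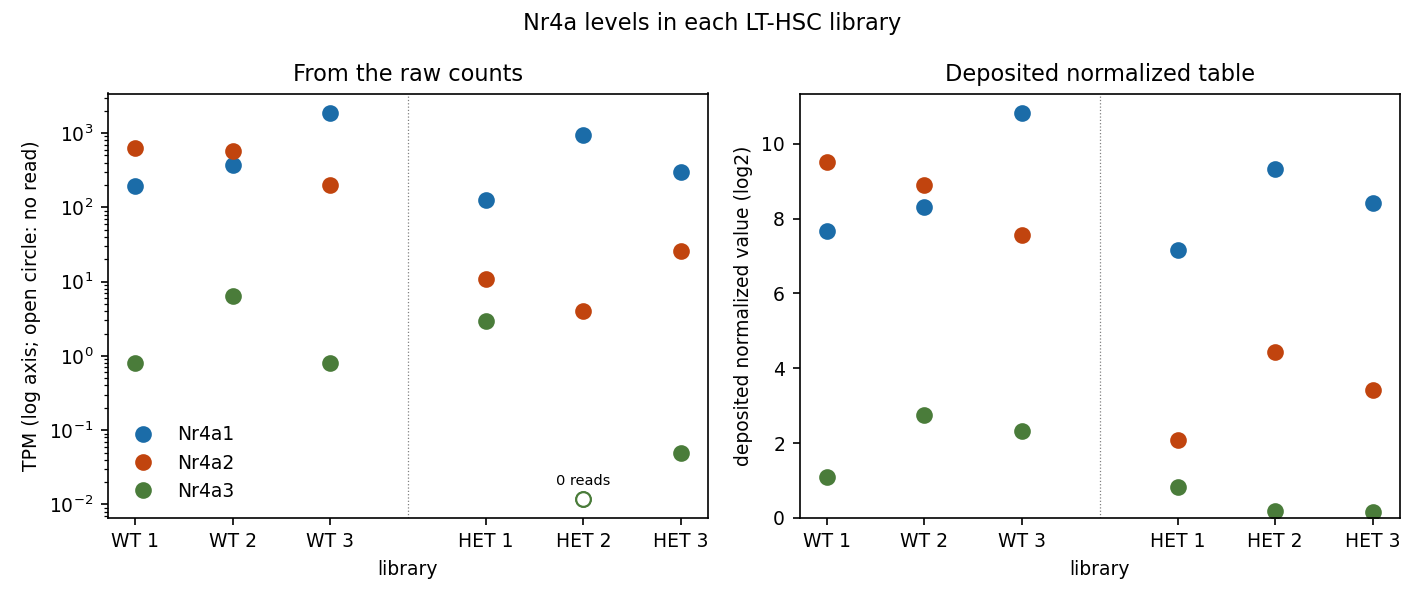
Level of each Nr4a gene in each LT-HSC library (3 WT and 3 Foxm1 HET), as TPM on a log axis at left and as the deposited normalized log2 value at right, 1 point per gene and library. Nr4a2 lies at 198 TPM or more in the WT libraries and at 26.2 TPM or less in the Foxm1 HET libraries, while the genotypes overlap for Nr4a1 and, in TPM, for Nr4a3.

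The deposited normalized table, on a log2 scale, gave the same separation for Nr4a2 but a different order among the Foxm1 HET libraries. Nr4a2 had normalized values of 9.51, 8.91 and 7.58 in WT against 2.08, 4.43 and 3.42 in Foxm1 HET. Foxm1 HET replicate 2, the lowest in TPM, was thus the highest of the 3 in that table. Nr4a1 had normalized values of 7.68, 8.31 and 10.82 in WT against 7.16, 9.33 and 8.42 in Foxm1 HET, again overlapping. The normalized values of Nr4a3 were 1.08, 2.75 and 2.32 in WT against 0.83, 0.18 and 0.17 in Foxm1 HET, where they did not overlap, unlike its counts. The 0.18 of Foxm1 HET replicate 2, where Nr4a3 had no read, was the lowest value that library holds in the table.

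How much each paralog varied between libraries of a genotype depended on the scale, and is given as a description because the members were chosen on values of these libraries. In log2 CPM the SD of Nr4a2 was the smallest of the 3 in each genotype, at 0.56 in WT against 0.49 in Foxm1 HET. In the normalized table it was 0.99 in WT against 1.18 in Foxm1 HET, while Nr4a1 had 1.66 and 1.09 and Nr4a3 had 0.86 and 0.38. The order of the paralogs by spread was thus not the same on both scales.

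Nr4a1 and Nr4a2 together made up nearly all of the family. The summed TPM of the 3 genes was 832, 963 and 2073 in WT against 138, 935 and 327 in Foxm1 HET, so the family totals of the genotypes overlapped. Nr4a2 made up 76.6%, 60.4% and 9.56% of that total in WT against 7.92%, 0.434% and 8.0% in Foxm1 HET. It was the most abundant paralog in WT replicates 1 and 2, whereas Nr4a1 was the most abundant in WT replicate 3 and in all 3 Foxm1 HET libraries. Nr4a1 made up 23.3%, 39.0% and 90.4% of the total in WT against 89.9%, 99.6% and 92.0% in Foxm1 HET. The share of Nr4a2 in WT replicate 3 was within 2 percentage points of the Foxm1 HET replicates 1 and 3, and in that library Nr4a1 was at its highest and Nr4a2 at its lowest WT level. Nr4a3 contributed at most 2.16% in any library.

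**Figure D3:**
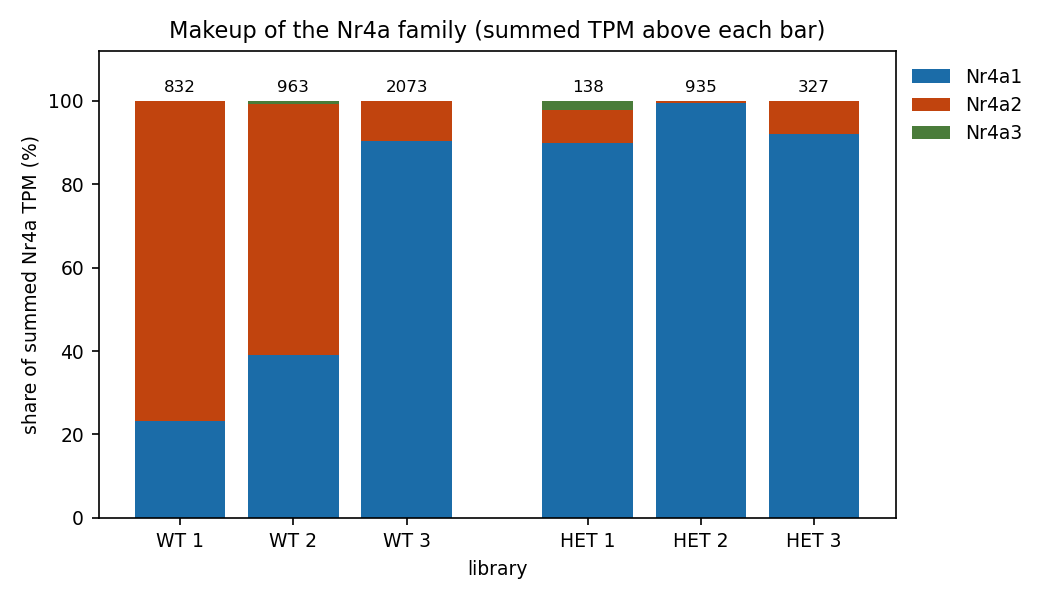
Share of the summed Nr4a TPM taken by each paralog in each library, in percent, with the summed TPM printed above each bar. Nr4a2 takes 76.6% and 60.4% in WT replicates 1 and 2, and Nr4a1 takes 89.9% or more in WT replicate 3 and in the Foxm1 HET libraries.

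Levels of the paralogs were compared within each library, where the library total cancels, as log2 ratios of counts per kb. The ratio of Nr4a1 to Nr4a3 was 7.86, 5.87 and 11.16 in WT against 5.37, 14.51 and 12.00 in Foxm1 HET, with a mean of 9.46 ± 3.66 (SD, n = 6). Nr4a1 was higher in 6 of 6 libraries (two-sided exact sign-flip permutation test over libraries, p = 0.0312, the smallest that 6 libraries allow, and 0.0469 adjusted over the 3 pairs). The ratio of Nr4a2 to Nr4a3 was 9.58, 6.50 and 7.92 in WT against 1.87, 6.67 and 8.48 in Foxm1 HET, with a mean of 6.84 ± 2.69 (SD, n = 6). Nr4a2 was also higher in 6 of 6 libraries (same exact test, p = 0.0312, adjusted 0.0469). Nr4a3 was thus the lowest of the paralogs in every library. The tests take both genotypes together, although Nr4a2 differed between them. The family was also chosen on the values of Nr4a2 in these libraries, so p-values of ratios with Nr4a2 are a description only. The 14.51 and 6.67 of Foxm1 HET replicate 2 divide by a count of 0, so their size is set by the 0.5 reads added to each count. In the normalized table the mean log2 ratio was 7.40 for Nr4a1 over Nr4a3 and 4.77 for Nr4a2 over Nr4a3, both smaller than from the counts, with the same exact p-values. The uncounted 3′ UTR of Nr4a3 stands beside both comparisons, and its part was not tested.

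Nr4a2 and Nr4a1 did not separate in the same way. Their log2 ratio, Nr4a2 over Nr4a1, was 1.72, 0.63 and -3.24 in WT against -3.50, -7.84 and -3.52 in Foxm1 HET, with a mean of -2.63 ± 3.42 (SD, n = 6). Nr4a2 was higher in 2 of 6 libraries (same exact test, p = 0.125, adjusted 0.125), so the difference did not pass. That test has the same limits, and its mean over both genotypes stands for neither. Within genotypes the mean was -0.30 ± 2.61 (SD, n = 3) in WT against -4.95 ± 2.50 (SD, n = 3) in Foxm1 HET, given without a test because 3 libraries cannot reach the threshold.

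The Nr4a genes were then placed among the nuclear receptors, the ligand-regulated transcription factors they belong to. The count table held 49 nuclear receptors, the Nr4a genes included, of which 18 had no read in any library. In TPM, Nr4a1 ranked 2, 2 and 1 among them in WT against 1, 1 and 1 in Foxm1 HET. Nr4a2 ranked 1, 1 and 3 in WT against 11, 4 and 8 in Foxm1 HET, and Nr4a3 ranked 12, 14 and 9 in WT against 15, 16 and 22 in Foxm1 HET. The 3 Nr4a genes took 79.3%, 65.4% and 76.5% of all nuclear receptor TPM in WT against 30.4%, 70.2% and 43.1% in Foxm1 HET, which overlap through Foxm1 HET replicate 2.

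On the scale of mean log2(TPM + 0.1), Nr4a1 ranked 1 in both genotypes, at 9.01 ± 1.68 (SD, n = 3) in WT against 8.35 ± 1.46 in Foxm1 HET. Nr4a2 followed in WT at 8.71 ± 0.94, within the spread of Nr4a1, and the next receptor was Nr2c1, an orphan receptor, at 5.54 ± 2.84. In Foxm1 HET, Nr4a2 ranked 4 at 3.41 ± 1.33, between Nr2c1 at 3.76 ± 1.53 and the retinoic acid receptor Rara at 3.32 ± 4.18, neighbors from which it did not differ beyond their spread. Nr4a3 stood between the fatty acid sensor Ppard (1.54) and the thyroid hormone receptor Thra (0.34) in WT, at 0.80 ± 1.64. In Foxm1 HET it stood between Thra (-0.92) and Rarb (-1.53) at -1.48 ± 2.7.

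Across all genes, 27 of 8195 passed an adjusted p of 0.05 by edgeR (0.329%), 26 of them higher in Foxm1 HET, and 494 (6.03%) had an unadjusted p under 0.05. The count and its direction rested on the tool and on single libraries. DESeq2 called 194, of which 116 were higher and 78 lower, and limma-voom called 4, all lower. By edgeR 0 were called without WT replicate 1 (615 at an unadjusted p under 0.05), without WT replicate 2 (549) or without Foxm1 HET replicate 2 (626), and 1 without WT replicate 3. The other genes of the Nr4a pathway were taken from 5 lists of 170 genes, of which 122 could be tested. The lists were written from general knowledge but with earlier results of these data known, so their shares are a description. By edgeR 0 of the 122 passed, with 7 at an unadjusted p under 0.05, and limma-voom also called 0. DESeq2 called 1, Hdac5. A total of 71 had a lower and 51 a higher fitted value in Foxm1 HET, beside 4471 lower and 3724 higher of all 8195 genes. The median log2 fold change of the 122 was -0.24 against -0.26 over all genes. In log2 CPM all Foxm1 HET libraries lay below all WT libraries for 13 of the 122 (10.7%, against 4.55% of all genes tested) and above for 2 (1.64%, against 4.12%). Of the genes named below, overlap is stated in log2 CPM unless counts are named. Adjusted p-values of listed genes below are from edgeR with Benjamini-Hochberg adjustment over all 8195 genes.

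Of the 46 other nuclear receptors, 12 were tested, and 10 had a lower fitted value in Foxm1 HET (median log2 fold change -0.98). Over all 8195 genes tested, 4471 had a lower fitted value, with a median log2 fold change of -0.26. Only Nr1d2, a circadian repressor, had all Foxm1 HET libraries below all WT libraries in log2 CPM, with 219, 3084 and 61 reads in WT against 101, 2 and 50 in Foxm1 HET (edgeR log2 fold change -5.16, SE 3.12, adjusted p = 0.938). Ppard was the only one under an unadjusted p of 0.05, at 206, 307 and 9 reads in WT against 1608, 7436 and 39 in Foxm1 HET (edgeR log2 fold change 5.66, adjusted p = 0.353). Its genotypes overlapped, and a single library, Foxm1 HET replicate 2, held most of its reads. Nr2c1 had 263, 1345 and 15491 reads in WT against 413, 1137 and 249 in Foxm1 HET, and the oxysterol receptor Nr1h2 had 1332, 1 and 2732 in WT against 426, 2 and 731 in Foxm1 HET, both overlapping.

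The signaling genes upstream of Nr4a transcription had 33 of 37 members tested, with 5 at an unadjusted p under 0.05, 3 higher and 2 lower. Over all 8195 genes tested, 494 (6.03%) were under that threshold by edgeR, 282 higher and 212 lower. Adcy7, an adenylate cyclase that makes cAMP, had 821, 1139 and 59 reads in WT against 1655, 19096 and 3615 in Foxm1 HET (edgeR log2 fold change 5.08, adjusted p = 0.279). Prkaca, the catalytic subunit of protein kinase A, had 13, 8 and 52 in WT against 0, 2658 and 983 in Foxm1 HET (edgeR log2 fold change 6.69, adjusted p = 0.506). Prkd2, the remaining higher gene, had 3042, 1051 and 436 in WT against 737, 14408 and 929 in Foxm1 HET (edgeR log2 fold change 3.42, adjusted p = 0.773). Most of its Foxm1 HET reads were in replicate 2. Prkaca and Prkd2 overlapped between the genotypes. For Adcy7 all Foxm1 HET counts exceeded all WT counts, but in log2 CPM Foxm1 HET replicate 1 (5.44) lay below WT replicate 2 (5.66).

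Hdac5, a class IIa deacetylase that holds MEF2 targets silent, had 1378, 8236 and 217 reads in WT against 173, 4 and 9 in Foxm1 HET (edgeR log2 fold change -6.34, adjusted p = 0.560). The calcineurin catalytic subunit Ppp3ca, which activates NFAT, had 1412, 6463 and 8336 in WT against 132, 7 and 1496 in Foxm1 HET (edgeR log2 fold change -4.43, adjusted p = 0.743). In log2 CPM both had all Foxm1 HET libraries below all WT libraries, as did Mef2a (edgeR log2 fold change -3.55) and Nfatc1 (edgeR log2 fold change -1.01), transcription factors of the calcium branch.

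Among the co-regulators of Nr4a receptors, 24 of 25 were tested, with 12 higher, 12 lower and 0 at an unadjusted p under 0.05 by edgeR. The coactivator Ncoa3 had 1815, 16676 and 16 reads in WT against 1448, 1 and 2263 in Foxm1 HET, and the acetyltransferase Ep300 had 10408, 14777 and 1532 in WT against 9622, 27454 and 32691 in Foxm1 HET (edgeR log2 fold change 2.11, adjusted p = 0.944). Stk11, the kinase LKB1, had 23, 198 and 4 in WT against 3241, 2 and 5608 in Foxm1 HET, and the corepressor Trim28 had 1205, 928 and 26350 in WT against 3391, 15 and 8064 in Foxm1 HET. None of these 4 separated the genotypes. In log2 CPM, but not in counts, the corepressor Ctbp1 lay lower in all Foxm1 HET libraries (edgeR log2 fold change -2.22) and its paralog Ctbp2 higher in all of them (3.24).

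The genes of cell cycling and stem cell fate tied to Nr4a receptors had 21 of 26 members tested, with 0 at an unadjusted p under 0.05 by edgeR. Bcl2, the survival factor that Nr4a1 protein can bind, had 4957, 2411 and 5692 reads in WT against 1430, 13 and 52 in Foxm1 HET, with no overlap (edgeR log2 fold change -4.07, SE 2.09, adjusted p = 0.832). Gata2, a transcription factor needed for HSC maintenance, had 1533, 8418 and 5816 in WT against 1695, 36 and 1842 in Foxm1 HET, and lay lower in all Foxm1 HET libraries in log2 CPM (edgeR log2 fold change -3.10, adjusted p = 0.938). Runx1, a further HSC transcription factor, was the third without overlap, at 9.42 ± 0.31 log2 CPM (SD, n = 3) in WT against 8.18 ± 0.25 in Foxm1 HET. Its edgeR log2 fold change was -1.25 (SE 1.49, adjusted p = 0.998). In counts Runx1 overlapped, at 12889, 14106 and 14008 reads in WT against 10869, 1587 and 14518 in Foxm1 HET. Ikzf2 and the cell cycle factor E2f1 overlapped, with log2 fold changes of -2.49 and 2.87.

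The immediate-early genes share the rapid induction of the Nr4a genes, and 32 of 36 were tested. In Foxm1 HET 18 had a lower fitted value, 14 a higher, and 1 reached an unadjusted p under 0.05. That gene was Klf4, a Krüppel-like factor linked to quiescence, with 5126, 10478 and 1536 reads in WT against 731, 185 and 11 in Foxm1 HET (edgeR log2 fold change -4.04, SE 2.02, adjusted p = 0.806). The study also reported Klf4 as markedly lower in Foxm1 HET HSCs by RT-PCR. The stress-induced factor Atf3 had 6104, 6228 and 4524 in WT against 1436, 157 and 34 in Foxm1 HET (edgeR log2 fold change -3.73, SE 1.97, adjusted p = 0.854). As with Nr4a2, all Foxm1 HET libraries lay below all WT libraries for both, and the same held for Nfkbia and, in log2 CPM but not in counts, for Ppp1r15a.

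In the opposite direction, Ier3 had 6, 3 and 37 reads in WT against 1152, 248 and 107 in Foxm1 HET (edgeR log2 fold change 4.71, adjusted p = 0.962). Egr2 had 4963 of its reads in WT replicate 3 and overlapped. Several abundant immediate-early genes, named after their values were seen, were high in both genotypes and overlapped. Fos had 10488, 22677 and 9743 reads in WT against 19942, 2485 and 17350 in Foxm1 HET, Egr1 had 29145, 95788 and 23817 in WT against 32017, 39147 and 57182 in Foxm1 HET, and Jun had 18966, 15726 and 9289 in WT against 13276, 7699 and 22731 in Foxm1 HET. Dusp1 had 82081, 44702 and 41086 in WT against 54466, 60886 and 38652 in Foxm1 HET.

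**Figure D4:**
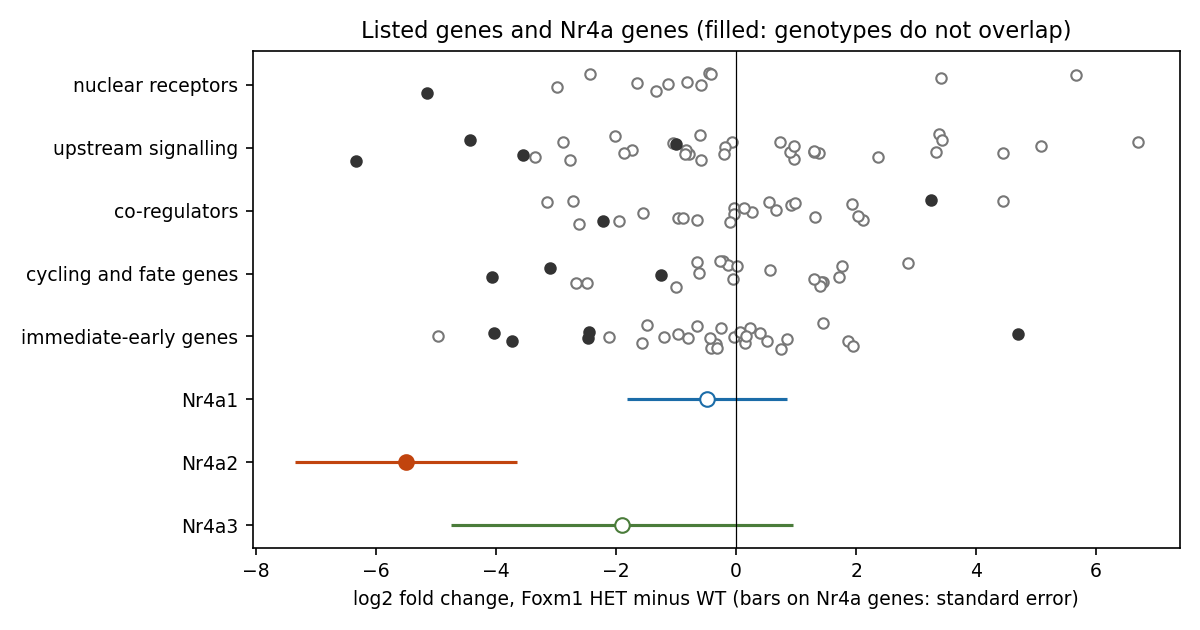
Log2 fold change (Foxm1 HET minus WT) from edgeR for each tested gene of the 5 lists and for the Nr4a genes, whose bars are standard errors, with filled points where the 3 libraries of a genotype do not overlap those of the other in log2 CPM. Nr4a2, at -5.50, is the only Nr4a gene without overlap, and 15 of the 122 listed genes are filled, 13 at lower levels in Foxm1 HET (10.7%, against 4.55% of all genes tested) and 2 at higher (1.64%, against 4.12%). The lists were written with earlier results of these data known.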

How the data were processed

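LT-HSC RNA-Seq was analysed from the deposited tables. According to the study's methods, reads of 50 bases were mapped by STAR 2.7.2b on GRCm38, and the submitters' processing notes also name limma without a role. The authors deposited raw counts per gene with exon coordinates and lengths, and normalized values on a log2 scale. The counting program and its use of strand are not given in the sources used here. Genes were matched by gene identifier.

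Counts were fitted with edgeR 4.0.16 (R 4.3.3): the default low-count filter, TMM scaling and the quasi-likelihood test for genotype over 8195 genes. Standard errors were derived from the F statistic of that test. Log2 CPM used a prior count of 2 and ratios within libraries an offset of 0.5. Alternatives included DESeq2 1.42.0 and limma 3.58.1. Only the edgeR fit was run on simulated counts. These had less spread than the libraries, whose common biological coefficient of variation was 1.66, so that run does not describe the fit at this spread.

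The members and lists were chosen with earlier results of these data known. Named genes were the Nr4a genes, Foxm1 and, from each list, up to 4 genes of smallest p. The nearest nuclear receptors in rank and the 4 most similar patterns per member were also named. Genes without overlap and Prkd2 were added after their values were seen. The methods speak of 3 pairs of mice, and the sample titles number the replicates without saying that a number marks a pair.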

Additional observations from a re-analysis of the deposited data

How the results depend on the processing

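The log2 fold change of Nr4a2 kept its direction under every setting tried, from -5.81 to -5.24 with each library left out and -5.51 to -5.13 otherwise. That of Nr4a1 ran from -3.03 to 1.52 and that of Nr4a3 from -6.65 to -0.44 with each library left out. The count of genes called, 27 in all, was 10 with RLE scaling, 43 with upper-quartile scaling, 7 with library size alone, 194 with DESeq2, 4 with limma-voom, 0 with limma on the normalized table (576 at an unadjusted p under 0.05) and 0 among genes with at least 10 counts in every library (157 at an unadjusted p under 0.05 by edgeR), a filter that removes Nr4a3. With each library left out it ran from 0 (without WT replicate 1, WT replicate 2 or Foxm1 HET replicate 2) to 29. Of the listed genes, 0 were called by edgeR and 1 by DESeq2. With each library left out, the log2 ratio ran from 8.45 to 10.28 (7.40 in the normalized table) for Nr4a1 over Nr4a3, from 6.29 to 7.83 (4.77 in the normalized table) for Nr4a2 over Nr4a3 and from -3.49 to -1.58 for Nr4a2 over Nr4a1, and no test over 5 libraries can pass (adjusted p of at least 0.0938, exact). The methods speak of 3 pairs of mice, but no source ties the replicate numbers to them. The numbers were therefore not taken as pairs. Deviations of same-numbered libraries had correlations of 0.016, -0.025 and -0.069, and those of differently numbered ones ran from -0.025 to 0.055. These correlations cannot tell pairs from other libraries. With the replicate block edgeR called 0 genes (108 at an unadjusted p under 0.05), and the log2 fold change was -0.91 for Nr4a1, -5.51 for Nr4a2 and -4.36 for Nr4a3. The count of Nr4a3 was at most 119 reads in a library, so its values are the least precise of the 3.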

Other observations

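The genes whose log2 CPM followed each paralog most closely over the 6 libraries are given as a description, since the points share library depth and scaling. For Nr4a1 they were Sap130 (Pearson's r 0.981), Prpf8 (0.973), 2610507B11Rik (0.970) and Ogt (0.969), and 50 of 8194 genes exceeded 0.9. With library size as the only scaling, r was 0.951 for Sap130 but 0.696 for the splicing factor Prpf8. For Nr4a2 they were the collagen prolyl hydroxylase Lepre1 (0.991), Plekha5 (0.987), AI467606 (0.980) and the microtubule-binding gene Map7 (0.980), with 39 genes above 0.9. The r of these 4 was at least 0.961 with library size alone. Each of the 4 had lower counts in every Foxm1 HET library than in every WT library. The r values were taken over both genotypes, so under either scaling they restate in part the contrast for which Nr4a2 was chosen. For Nr4a3, at low counts, the closest genes were Serp1 (0.987), Hist3h2a (0.980), the histone demethylase Kdm1a (0.978) and Fam35a (0.975).

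The NBRE sequence AAAGGTCA, to which all 3 receptors bind, was present in the RefSeq promoter window (250 bases before to 50 after the start) of 460 genes, 77 of which were tested. By edgeR 0 of the 77 passed an adjusted p of 0.05, with 3 higher and 2 lower in Foxm1 HET at an unadjusted p under 0.05. Of the 77, 44 had a higher and 33 a lower fitted value in Foxm1 HET. Of the 6500 tested genes that have a promoter window, 2981 were higher and 3519 lower. The median log2 fold change was 0.39 for the 77, against -0.25 for the 6500. The genotypes did not overlap for 2 of the 77 in each direction, beside 275 in each direction among the 6500.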
